A study of Mus musculus with 2 samples.

Results

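B cells were examined in single-cell RNA sequencing data from the lungs of mice carrying 4T1 tumors, a mouse mammary carcinoma line. The cells were chosen by measured values: a barcode counted as a B cell when it held at least 4 unique molecular identifiers (UMIs, each a captured transcript molecule) of Cd79a, Cd79b and Ms4a1 together. It also had to have at most 1 UMI of Cd3d, Cd3e and Cd3g together, under 3 of Siglech, and none of Cdh5 or Csf1r. Before that, barcodes needed 500 to 5000 detected genes, under 7.5% mitochondrial UMIs and under 5% of UMIs on the neutrophil genes S100a8 and S100a9. By this rule 1055 of 16995 cells were B cells, 456 of 8662 in the saline library and 599 of 8333 in the nanoparticle (NP) library.

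Both groups were female BALB/cJ mice aged 12 weeks and inoculated with 100000 4T1 cells. One group received intravenous saline and the other intravenous particles of the polymer PLG, with 5 doses given every 3 days starting on day 1. Lungs were taken on day 14 and pooled from 4 mice per condition by the labels, or 5 by the methods of the study. Red cells were lysed, and 1 library was made per condition. No test between conditions was therefore possible, and each interval below is a 95% interval that covers counting error only, not the spread between mice or libraries. For gene levels and ratios each UMI counts as independent, so the spread between cells is left out too. The animal, the pool and the library cannot be told apart from the treatment in any comparison.

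B cells are the lymphocytes that make antibodies. Their antigen receptor is a membrane immunoglobulin held by CD79A and CD79B, and its signal is damped by inhibitory receptors such as CD22. Most B cells outside germinal centers are naive follicular cells that carry IgM and IgD, while marginal zone and B-1 cells respond early to microbes with IgM. B cells present antigen on MHC class II at rest, unlike most tissue cells, and raise class I presentation and guanylate binding proteins when IFN-γ reaches them, in part through the transcription factor IRF1.

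The genes whose B cell levels differed most between the libraries within this pathway are introduced first by their promoters. Of the 15 IFN-γ response genes and 21 class I presentation genes with at least 50 UMIs in B cells, 9 were at least 1.5-fold higher in the NP library, beside 2.69% of all 7465 measured genes, and 31 of the 36 had an entry among RefSeq promoter windows on GRCm38.p6. The 250 bases before each start were searched on both strands for TTCNNNGAA, the letters of the gamma-activated site, and for GAAA, any 2 bases and GAAA again, the letters of the interferon-stimulated response element. The first was present in 7.02% and the second in 2.98% of all 32851 windows. Of the 9 genes, 2 held the first (Irf1 and Gbp7) and 5 held the second (Socs1, Gbp2, Gbp2b, Gbp3 and Gbp7). Of the other 22 genes, 5 held the first and 6 the second. No match was found before H2-Q6, H2-Q7 or Tap1, which says only that these letters are not in this window. The genes were chosen by their ratio in these cells, and a match is a description of the sequence, not a bound site. The sequences of 5 of these genes are shown 5′ to 3′ so that the matches can be seen, with each match in capitals.
Irf1, chr11:53769764-53770013, plus strand: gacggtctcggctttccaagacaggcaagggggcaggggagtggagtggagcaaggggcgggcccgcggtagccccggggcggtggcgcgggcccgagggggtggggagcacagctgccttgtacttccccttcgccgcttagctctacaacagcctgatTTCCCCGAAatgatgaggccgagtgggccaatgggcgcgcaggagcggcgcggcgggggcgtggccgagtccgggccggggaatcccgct
Gbp7, chr3:142530086-142530335, plus strand: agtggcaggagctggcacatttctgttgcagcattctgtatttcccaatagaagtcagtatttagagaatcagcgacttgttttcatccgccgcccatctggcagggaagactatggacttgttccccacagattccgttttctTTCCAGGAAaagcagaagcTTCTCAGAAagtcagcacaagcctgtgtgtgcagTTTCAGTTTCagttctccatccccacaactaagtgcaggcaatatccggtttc
Gbp2b, chr3:142594597-142594846, plus strand: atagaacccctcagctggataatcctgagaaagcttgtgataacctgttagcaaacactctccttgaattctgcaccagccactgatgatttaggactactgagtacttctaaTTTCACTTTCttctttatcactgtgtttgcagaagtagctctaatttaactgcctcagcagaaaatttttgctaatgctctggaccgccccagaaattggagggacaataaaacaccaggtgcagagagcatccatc
Gbp2, chr3:142620413-142620662, plus strand: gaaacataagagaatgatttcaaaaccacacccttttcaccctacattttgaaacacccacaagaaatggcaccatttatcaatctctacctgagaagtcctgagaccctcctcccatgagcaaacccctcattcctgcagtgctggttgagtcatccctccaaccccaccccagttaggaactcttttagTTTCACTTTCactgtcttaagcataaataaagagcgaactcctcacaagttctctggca
Socs1, chr16:10785537-10785786, minus strand: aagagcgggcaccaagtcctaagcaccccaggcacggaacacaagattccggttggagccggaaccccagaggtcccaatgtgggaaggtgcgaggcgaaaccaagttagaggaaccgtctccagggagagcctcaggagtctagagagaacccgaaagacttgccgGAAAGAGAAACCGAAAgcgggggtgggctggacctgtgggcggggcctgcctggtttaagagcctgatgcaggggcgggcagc
In the Irf1 window the match TTCCCCGAA lies 90 to 82 bases before the start. Gbp7 holds TTCCAGGAA and TTCTCAGAA further from the start and TTTCAGTTTC, the second motif read on the other strand, at 53 to 44 bases. Gbp2 and Gbp2b share the letters TTTCACTTTC, at 59 to 50 and 137 to 128 bases before their starts, and the neighbouring matches GAAAGAGAAA and GAAACCGAAA overlap in Socs1.

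Few cells lay near the limit of the marker sum. Of the saline B cells 452 had at least 12 UMIs of the 3 marker genes and 4 had 4 to 11, and of the NP B cells 591 had at least 12 and 8 had 4 to 11. Just inside the limit, at 4 or 5 UMIs, lay 1 saline and 1 NP cell, and just outside, at 2 or 3 UMIs, lay 3 saline and 9 NP cells that met the other conditions. The median B cell held 27 marker UMIs in saline and 26 in NP lungs. A further 36 saline and 44 NP barcodes with enough B cell UMIs were left out by the genes of other cell types, most of them for Csf1r (20 and 18) or Cdh5 (9 and 21). The limit on S100a8 and S100a9 left out 21 saline and 9 NP barcodes that met the other conditions. Depth was similar, with medians of 4332 and 4451 UMIs and 1586 genes in both libraries, and totals of 2618116 and 3215118 UMIs. The 5th to 95th percentiles were 2955 to 14198 UMIs in saline and 2983 to 11885 in NP cells. Mitochondrial UMIs had medians of 4.61% and 4.84%. The libraries shared 21 cell barcodes among all cells and 1 among B cells.

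Markers that the rule did not use were present in most cells. Ighm, the IgM heavy chain, had a UMI in 452 of 456 cells from saline and 594 of 599 from NP lungs, and Igkc, the kappa light chain, in 442 and 593. Ebf1, a transcription factor that sets B cell identity, was found in 452 and 596 cells, and Cd37, a tetraspanin, in 446 and 577. Pax5, another such factor, was found in 308 and 399 cells. All 15 genes of the B cell marker list, which holds the 3 genes of the rule, had at least 50 UMIs, and none differed by 1.5-fold: their median log2 ratio of NP over saline was 0.07, from −0.15 for Ighm to 0.34 for Ly6d. Their summed level was 29098 CPM (UMIs scaled to a fixed library total) in saline and 30064 in NP cells.

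Transcripts of other cell types differed in level between the libraries. Those of S100a8, S100a9, Cd3d, Cd3e, Cd3g, Siglech, Cdh5 and Csf1r were limited by the rule itself. The 15 neutrophil markers summed to 2276 CPM in saline and 1820 in NP B cells, led by S100a9 (1187 and 1023). The order depended on depth, with 2571 and 1319 CPM in cells of up to 5000 UMIs and 1274 and 2780 CPM in cells over 10000 UMIs. The S100a9 ratio of −0.21 ranged from −1.42 to 0.55 over the alternatives. The 10 monocyte and macrophage markers summed to 222 and 130 CPM, led by Lyz2, of which 311 of 484 saline UMIs lay in 1 cell (ratio −0.85, and 0.61 without the top cells), while the defining gene C1qa had 1 UMI in all and Adgre1 had 5. The 13 T cell markers summed to 31.3 and 28.3 CPM, and most of this was the kinase gene Lck (45 and 61 UMIs). NK markers summed to 4.97 and 4.04 CPM, and Klrb1c was at 0. Endothelial markers summed to 113 and 164 CPM, mostly Pecam1 (84.4 and 85.2), but Cldn5, which defines endothelial cells, had 6 saline and 39 NP UMIs. Epithelial markers summed to 1751 and 122 CPM, led by the surfactant gene Sftpc. Of the 3636 saline Sftpc UMIs, 3569 lay in 1 cell that had 5 UMIs of the B cell marker genes, and the part of this cell in other genes is given below. The erythroid list summed to 6094 and 3421 CPM, with 4802 of the 5166 NP UMIs of the globin gene Hbb-bs in 1 cell. Barcodes with under 50 UMIs served as a profile of free RNA. The summed level of S100a8 and S100a9 in B cells was 1.01% of that in the saline and 1.38% of that in the NP profile. These shares, which rest on neutrophil genes that the rule itself limited, were used wherever free RNA was subtracted. The median B cell lay the other way, with 0.170% of its UMIs on these genes in saline and 0.076% in NP. For Scgb1a1, described last, the B cell level was a larger share of its free level in both libraries.

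**Figure D1:**
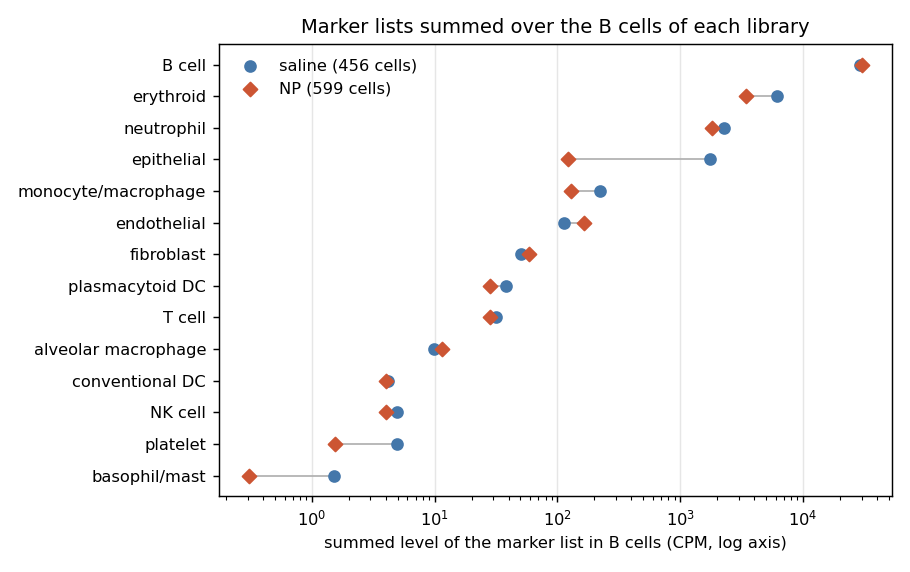
Summed level of each marker list in the B cells of the saline (circles) and NP (diamonds) libraries, in CPM on a log axis. The B cell list sits near 29098 and 30064 CPM, and the widest gap is in the epithelial list, where 1 saline cell holds 3569 of 3636 Sftpc UMIs.

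B cells took a larger share of all NP cells and a smaller share of the cells other than neutrophils. They were 5.26% of saline cells (95% CI 4.80% to 5.76%) and 7.19% of NP cells (6.64% to 7.76%), which is 1.37 times the saline share (1.21 to 1.54). Of the cells under the S100a8 and S100a9 limit they were 14.6% (13.4% to 15.9%) and 11.5% (10.7% to 12.4%), or 0.788 times (0.703 to 0.883). Cells under that limit were 35.9% of saline cells and 62.3% of NP cells, so the direction of the B cell difference depends on whether neutrophils are in the denominator. For each T cell, found by at least 4 UMIs of Cd3d, Cd3e and Cd3g, there were 1.08 B cells in the saline and 1.76 in the NP library.

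Gene levels were compared as the log2 ratio of CPM in NP over saline B cells, UMIs summed over the cells of a library. Of 7465 genes with at least 50 UMIs, 201 (2.69%) were at least 1.5-fold higher in NP B cells and 278 (3.72%) at least 1.5-fold lower. The other 6986 genes, 93.6%, lay between these limits, and the median ratio was −0.04. The genes past the limit were thinly covered, with medians of 86 UMIs for those higher and 83.5 for those lower against 178 for all measured genes, and the interval left out 0 for 149 and 189 of them. T cells had 4.56% higher and 3.75% lower genes, and endothelial cells 6.05% and 4.4%. Genes with the most UMIs differed little: ribosomal protein genes made up 30.8% and 30.9% of UMIs, with 0 of 82 past 1.5-fold, and mitochondrial genes 4.82% and 4.88%, with 1 of 13 higher.

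Many of the widest ratios came from 1 cell. Of the lower genes, 14 had over 50% of their saline UMIs in 1 cell, and of the higher genes, 5 had over 50% of their NP UMIs in 1 cell. The surfactant cell named above also held 487 of 495 Sftpa1, 151 of 152 Sftpb, 208 of 209 Cxcl15, 118 of 118 Slc34a2 and 384 of 392 Lyz1 UMIs of the saline B cells. These genes had log2 ratios of −3.92 to −4.59, and without the top cell of each library the values were 0.70 to 2.12. For Slc34a2, Cxcl15 and Sftpb the saline count left was under 3 and was set to 3, so their values are lower bounds. Ighg1, the IgG1 heavy chain, had 1271 saline and 2 NP UMIs, 1268 of them in 1 saline cell. Igha, the IgA heavy chain, had a ratio of 1.58, but 1 saline cell held 1048 of 1087 UMIs and 1 NP cell 3959 of 3982. Tagln, a smooth muscle gene, had 117 of its 118 NP UMIs in 1 cell. The globin gene Hbb-bt was lower by a log2 ratio of −1.27, with 751 of 1707 saline UMIs and 820 of 867 NP UMIs each in 1 cell, and by −4.64 without these cells.

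**Figure D2:**
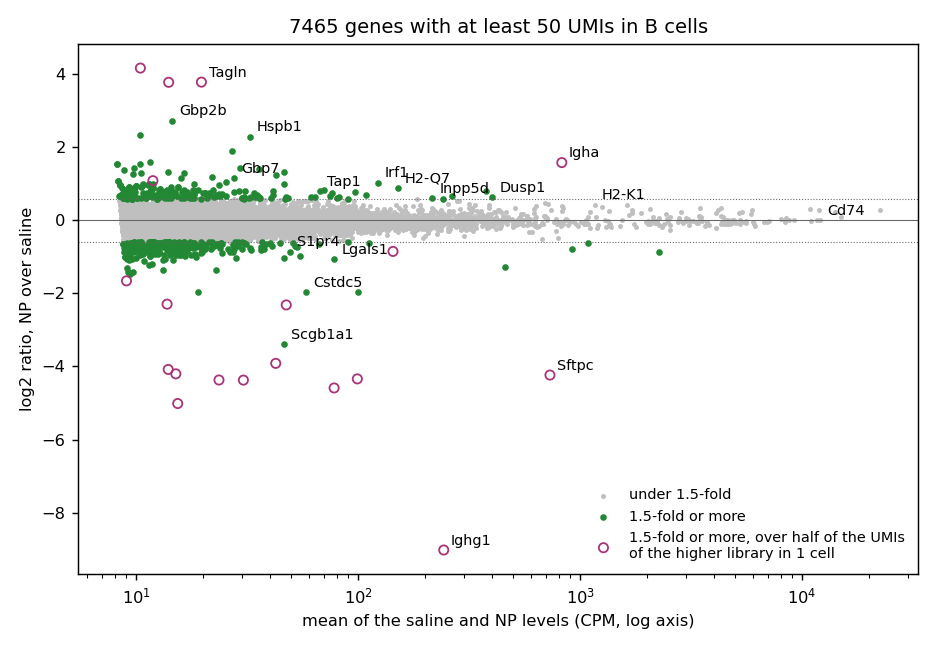
Log2 ratio of NP over saline against the mean level (CPM, log axis) for the 7465 genes with at least 50 UMIs in B cells. Dotted lines mark 1.5-fold, filled green points pass it, and open circles pass it with over 50% of the UMIs of the higher library in 1 cell, as for Ighg1, Sftpc, Igha and Tagln.

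Of the lists with at least 10 measured genes, IFN-γ response genes had the highest median ratio in B cells, while the 3 measured transitional genes had a median of 0.89. Of the 26 members in the matrix, 15 had at least 50 UMIs, 6 were at least 1.5-fold higher, 0 lower and 9 between, and 14 lay above 0. The median log2 ratio of the 15 was 0.49, beside −0.04 for all measured genes. The 26 members together had 1244 saline and 2291 NP UMIs, or 475 and 713 CPM, a log2 ratio of 0.58 (0.48 to 0.69). The list was written with results of these data known, and the counts describe these 2 libraries.

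Irf1 (chr11:53770014-53778374), the transcription factor induced by IFN-γ, had 211 UMIs in 130 saline cells and 528 UMIs in 232 NP cells. Its level was 80.6 and 164 CPM, a log2 ratio of 1.03 (0.79 to 1.26), and no cell held more than 15 of these UMIs. Irf1 stood at 92.6 CPM in saline and 213 CPM in NP free RNA, and with free RNA subtracted its ratio was 1.02. After every cell was thinned to 1000 UMIs, an Irf1 UMI was present in 7.46% (5.22% to 10.3%) and 14.9% (12.1% to 18.0%) of cells, beside 17.2% and 23.1% of endothelial cells. Without thinning the B cell shares were 28.5% and 38.7%. Gbp2b (chr3:142594847-142619179), a guanylate binding GTPase of cell-autonomous defense, had 10 UMIs in 8 saline cells and 81 UMIs in 39 NP cells, a ratio of 2.72 (1.77 to 3.84), which was 1.61 among cells with under 1% of UMIs on S100a8 and S100a9. Gbp7 (chr3:142530342-142550149), another of these GTPases, had 45 and 122 UMIs in 32 and 75 cells (1.14, 0.64 to 1.67). Gbp2 had 25 and 75 UMIs in 24 and 46 cells (1.29, 0.62 to 2.00), but at 1000 UMIs per cell it was found in 1.54% and 1.5025% of cells. Gbp3 had 29 and 58 UMIs (0.70, 0.04 to 1.40), and these 4 genes lie together on chromosome 3. Their sequences are related, and reads shared between family members can be split in counting.

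Socs1, the feedback inhibitor of JAK kinases, had 70 saline and 139 NP UMIs (0.69, 0.27 to 1.13). The other measured members lay closer to 0, with the GTPase genes Igtp at 47 and 81 UMIs (0.49), Gbp4 at 61 and 105 (0.49), Irgm1 at 73 and 109 (0.28) and Ifi47 at 83 and 109 (0.10). Icam1, an adhesion molecule, was the one measured member below 0 (−0.09). Gbp3, Igtp, Gbp4, Irgm1, Ifi47, Icam1, the receptor chains and Ifng, and below Psmb8, Psmb9, Tap2, Bhlhe41, Zbtb32, Cd5 and Mki67, fall outside the rule for named genes and were chosen after their values were seen. The genes of the IFN-γ receptor chains, Ifngr1 and Ifngr2, had 80.2 and 75.9 CPM and 68.4 and 65.6 CPM in saline and NP cells. No Ifng UMI was found in the B cells of either library.

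The IFN-γ list was also counted per cell at equal depth. With every cell thinned to 1000 UMIs, 70.0% of saline and 57.3% of NP B cells had no UMI of the IFN-γ list, and 7.68% and 17.9% had at least 2. The mean was 0.439 and 0.710 UMIs per cell. At 2000 UMIs per cell, 49.7% and 37.3% had none. Without thinning, 22.6% and 14.5% of cells had none, and the 10th, 50th and 90th percentiles were 0, 1 and 6 in saline and 0, 2 and 8.2 in NP cells.

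Class I antigen presentation genes were higher in most members, by less than 1.5-fold. Of the 22 members, 21 had at least 50 UMIs, 3 were at least 1.5-fold higher, 0 lower and 17 above 0, with a median of 0.20. Their summed level was 7999 CPM in saline and 9836 in NP cells (0.30, 0.27 to 0.32). H2-Q7 (chr17:35439155-35443773), a nonclassical class I molecule, had 277 UMIs in 173 saline cells and 629 in 360 NP cells, or 106 and 196 CPM (0.89, 0.68 to 1.10). At 1000 UMIs per cell, an H2-Q7 UMI was present in 8.33% (5.96% to 11.3%) of the saline cells and 19.0% (16.0% to 22.4%) of the NP cells. Tap1 (chr17:34187553-34197225), a subunit of the peptide transporter, had 128 and 274 UMIs in 98 and 205 cells (0.80, 0.49 to 1.12). H2-Q6 had 148 and 307 UMIs (0.76, 0.47 to 1.05).

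The abundant class I genes differed by less, with narrow intervals. H2-D1, a classical heavy chain, was at 3083 and 3858 CPM (0.32, 0.28 to 0.36), and H2-K1, the other classical heavy chain, at 993 and 1334 CPM (0.43, 0.36 to 0.50). B2m, the light chain of all class I molecules, was at 1227 and 1468 CPM (0.26, 0.19 to 0.32). The immunoproteasome genes Psmb9 and Psmb8 had ratios of 0.32 and 0.21, and Tap2, the partner of Tap1, was at −0.21. At 1000 UMIs per cell the median B cell held 8 class I UMIs in saline and 10 in NP cells, with 10th to 90th percentiles of 4 to 13 and 5 to 16. The H2-Q genes are near-identical copies, and BALB/c mice carry another H2 haplotype than the C57BL/6 reference, so the split of reads among these genes is uncertain in both libraries.

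**Figure D3:**
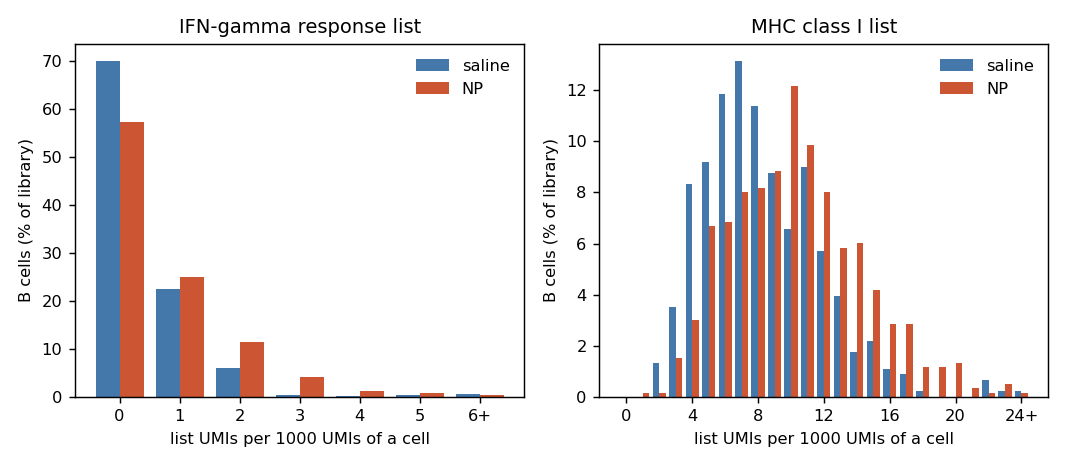
Share of saline and NP B cells by the number of IFN-γ list (left) and MHC class I list (right) UMIs in a cell thinned to 1000 UMIs. On the left 70.0% of saline and 57.3% of NP cells are at 0, and on the right the medians are 8 and 10.

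Class II presentation was high in both libraries and differed little. The 15 genes summed to 25327 and 25721 CPM (0.02, 0.01 to 0.04), with a median of 0.04, 0 genes higher and 1 lower. Cd74, the invariant chain, was at 12114 and 12076 CPM (0.00, −0.03 to 0.02). H2-Aa was at 4784 and 4828 CPM (0.01, −0.02 to 0.05), H2-Eb1 at 3314 and 3565 (0.11), and H2-Ab1 at 3032 and 3085 (0.02). Rfx5, a factor of class II transcription, had 72 saline and 56 NP UMIs (−0.66, −1.19 to −0.13).

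The list of type I interferon antiviral genes did not stand above the other genes in B cells. Like the IFN-γ list, it was written with results of these data known. Ifitm3, an interferon-inducible gene outside this list, had a ratio of 1.33 and is described below with the widest ratios. Of 35 measured members 2 were higher, 2 lower and 31 between, with a median of −0.05 and a summed ratio of 0.01 (−0.04 to 0.06). Ifi27l2a was at 409 and 475 CPM (0.22) and Ly6e at 327 and 386 CPM (0.24). Xaf1 (51 and 100 UMIs, 0.68) was higher, but 1 NP cell held 37 of the 100, and without the top cells the ratio was 0.16. Rtp4 had 27 and 54 UMIs (0.70, 0.01 to 1.43), or 0.20 without the highest 5% of scores of the doublet caller Scrublet. Ifit3, an antiviral effector, was lower with 37 UMIs in 13 saline and 17 in 8 NP cells (−1.42, −2.34 to −0.55). Ly6a, the other lower member, had a ratio of −0.81, which ranged from −1.09 to 0.05 over the alternatives. Rsad2 and Ifi44, chosen after their values were seen and each under 50 UMIs, had 23 and 10 and 23 and 2 UMIs, and in saline both lay in 7 cells. At 1000 UMIs per cell the mean of the list was 2.79 UMIs in saline and 2.84 in NP cells.

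Beside B cells, the same ratios were computed in T cells (422 and 341 cells) and in endothelial cells (377 and 1359 cells, at least 4 UMIs of Cdh5 and Cldn5). For IFN-γ response genes the median was 0.49 in B cells, 0.44 in T cells and 1.65 in endothelial cells, where 23 of 24 measured members were at least 1.5-fold higher. Class I had medians of 0.20, 0.14 and 0.83, and class II 0.04, 0.15 and 1.499. Cd274, the gene of PD-L1, had a ratio of 0.11 in B cells and 2.21 (1.46 to 3.07) in endothelial cells, the latter from 15 and 272 UMIs. Irf1 was 1.03 in B, 0.58 in T and 0.60 in endothelial cells, and H2-Q7 was 0.89, 0.19 and 1.52. The 3 classes come from the same 2 libraries, their starting levels differ, and differences between classes were not tested. Markers of other cell types moved too, with NK markers at 279 and 903 CPM in the T cells and epithelial markers at 16691 and 1532 CPM and pDC (plasmacytoid dendritic cell) markers at 8.78 and 121 CPM in the endothelial cells, and their part was not tested.

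**Figure D4:**
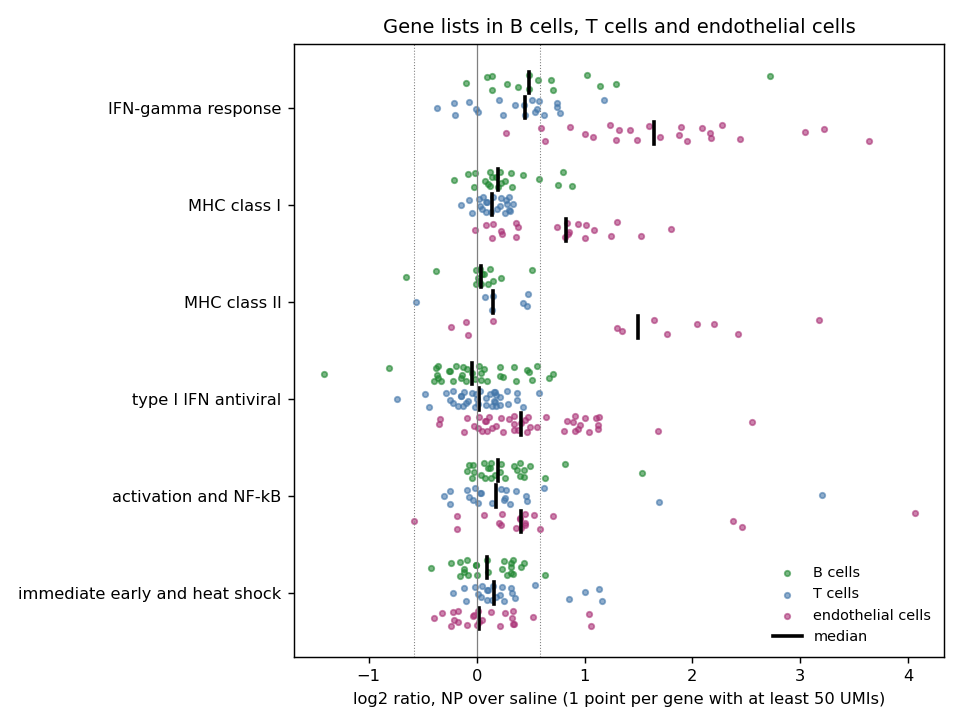
Log2 ratio of NP over saline for each list member with at least 50 UMIs in B cells, T cells and endothelial cells, with black bars at the medians and dotted lines at 1.5-fold. The endothelial IFN-γ, class I and class II medians (1.65, 0.83 and 1.499) lie to the right of those in B cells (0.49, 0.20 and 0.04).

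B cell receptor components and identity factors were close to equal. None of 19 identity transcription factors passed 1.5-fold (median 0.04), with Klf2, which keeps lymphocytes quiescent and recirculating, at 2485 and 2308 CPM, Ebf1 at 1591 and 1741, Mef2c at 1044 and 1119 and Foxp1 at 667 and 722. None of 23 coreceptor and signaling genes passed it (median 0.06), among them the adaptor Bank1 at 551 and 553 CPM, the kinase Syk at 296 and 333, the phosphatase Ptprc at 545 and 541, and Fcrla at 238 and 247. Of 12 measured inhibitory genes 1 was higher. Inpp5d, which encodes the phosphatase SHIP1, had 446 UMIs in 250 saline cells and 836 in 411 NP cells (0.61, 0.44 to 0.78), a ratio close to the limit and at its lowest 0.55 without cells over 10000 UMIs. Its neighbours in function, Ptpn6 (SHP1), Csk and Siglecg, had ratios of 0.02, −0.09 and −0.22.

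Activation genes and targets of NF-κB lay slightly above the other genes. Of 26 measured members 3 were higher, 0 lower and 21 above 0, with a median of 0.19. Egr3, an early gene of receptor signaling, had 131 UMIs in 79 saline and 249 in 114 NP cells (0.63, 0.32 to 0.95), but 0.32 with equal weight per cell, which ends the call. Nr4a2 had 36 and 78 UMIs (0.82, 0.23 to 1.43), and the chemokine gene Ccl4 had 11 and 39, of which 15 lay in 1 NP cell. Nfkbia, the inhibitor of NF-κB that NF-κB itself induces, was at 269 and 365 CPM (0.44, 0.30 to 0.58), Rel at 288 and 382 (0.40), Cd83 at 298 and 349 (0.23) and Cd69 at 333 and 328 (−0.02). Of 24 immediate early and heat shock genes, which tissue dissociation also induces, 1 passed 1.5-fold (median 0.10): Dusp1, a phosphatase of MAP kinases, at 315 and 489 CPM (0.63, 0.51 to 0.76), or 0.57 without the highest 5% of Scrublet scores and 0.45 without the cells Scrublet marked, which were 12 NP and 0 saline B cells. Junb was at 1390 and 1850 CPM (0.41) and Jund at 1408 and 1296 (−0.12). The heat shock gene Hspb1 is not in this list, and it had a ratio of 2.28, described below with the widest ratios. In all 13 of the 24 listed genes lay above 0. The part of dissociation in these values, in that of Hspb1 or in those of the activation list was not tested.

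Receptors for cytokines, survival and migration mostly stayed within 1.5-fold. Of 22 cytokine receptor and kinase genes 0 were higher and 1 lower, Tgfbr1 with 69 and 56 UMIs (−0.60, −1.13 to −0.07), or −0.55 without the highest 5% of Scrublet scores, while Jak1 was at 269 and 286 CPM and Il2rg at 178 and 179. Of 11 measured TNF family and survival genes 1 was higher, Tnfrsf1b (25 and 51 UMIs, 0.73, 0.02 to 1.48), which was 0.47 without the highest 5% of Scrublet scores. Tnfrsf13c, the receptor for the survival factor BAFF, was at 237 and 210 CPM (−0.17). Of 8 Toll-like receptor genes and adaptors none passed 1.5-fold, with Irf5 at 110 and 78.7 CPM (−0.48, −0.73 to −0.23) and Ly86 at 321 and 279 (−0.20). Of 15 homing genes 1 was lower: S1pr4, a sphingosine phosphate receptor, had 167 UMIs in 128 saline and 113 in 97 NP cells (−0.86, −1.22 to −0.51). Cxcr4, which holds B cells in CXCL12-rich sites, was at 333 and 441 CPM (0.41, 0.28 to 0.53), and Ccr7, which guides lymph node entry, had a ratio of 0.16.

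Most cells carried transcripts of unswitched B cells. Ighm and Ighd were found together in 411 saline cells (90.1%) and 528 NP cells (88.1%), and Ighm without Ighd in 41 and 66. Switched isotypes outweighed Ighm and Ighd in 3 saline and 4 NP cells. Ighg3 had a UMI in 37 and 42 cells, Igha in 6 and 6, Ighg1 in 4 and 1, and Ighg2b in 0 and 6. Ighg2c and Ighe had no UMI in 456 and 599 cells. BALB/c mice carry other heavy chain alleles than the C57BL/6 reference, with Ighg2a in place of Ighg2c, so the counts of the IgG genes are uncertain. After thinning to 1000 UMIs, Ighd was present in 61.2% (56.5% to 65.7%) and 54.8% (50.7% to 58.8%) of the cells, beside 0.556% and 0.385% of endothelial cells, a log2 ratio of −0.16 (−0.31 to −0.01). The ratio was −0.03 (−0.13 to 0.06) at 2000 UMIs, and without thinning the shares were 90.4% and 88.5%. Fcer2a, the low affinity IgE receptor CD23 of follicular B cells, was found in 35.7% and 37.4% of thinned cells, and its level was 374 and 421 CPM (0.17, 0.05 to 0.29). None of the 9 follicular genes passed 1.5-fold (median 0.11), with Fcmr at 663 and 715 CPM and Cd55 at 442 and 453.

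Light chain transcripts of both kinds were found in nearly every cell. Igkc and at least 1 of the lambda constant genes Iglc1, Iglc2 and Iglc3 occurred together in 438 saline (96.1%) and 590 NP cells (98.5%). Lambda UMIs were a median of 21.6% of the light chain UMIs of a cell in both libraries. Cells with at least 90% lambda UMIs numbered 17 (3.73%, 2.19% to 5.90%) and 15 (2.50%, 1.41% to 4.10%). Iglc2 had a UMI in 96.5% of saline and 97.5% of NP B cells but in 0.474% and 0% of T cells and 1.06% and 1.99% of endothelial cells. Iglc2 and Iglc3 are near-identical, and reads can be split between them. Iglc1 was at 603 and 827 CPM (0.46, 0.36 to 0.55), the widest ratio of the light chain genes, and at 1000 UMIs it was present in 20.4% (16.8% to 24.4%) and 28.4% (24.8% to 32.2%) of cells.

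A smaller set of cells expressed Bhlhe41 and Zbtb32, transcription factors associated with B-1 and memory cells. Cells with at least 2 UMIs of these genes numbered 42 of 456 in saline (9.21%, 6.72% to 12.2%) and 56 of 599 in NP (9.35%, 7.14% to 12.0%). They were chosen by these values after the data were seen. They were deeper than the cells with 0 such UMIs, with medians of 12895 against 4140 UMIs in saline and 11218 against 4248 in NP cells, and the set was not chosen again at equal depth. Their Ighd level was 94.6 CPM in saline and 114 in NP cells, against 1176 and 1037 in the cells with 0 UMIs, and Fcer2a was at 24.5 and 21.5 against 515 and 541. S100a6, a calcium binding protein of memory and B-1 cells, was at 3845 and 4419 CPM against 245 and 262, Vim at 2050 and 2348 against 342 and 335, and Plac8 at 1344 and 1531 against 176 and 251. Cd5, which marks B-1a cells, had 1 and 5 UMIs in these cells. The class II gene H2-Aa was lower in them, at 2826 and 2997 CPM against 5520 and 5371.

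NP over saline ratios of the interferon genes were then computed within these sets. Irf1 had a ratio of 1.27 (0.79 to 1.77) in the Bhlhe41 and Zbtb32 cells and 1.06 (0.78 to 1.35) in the cells with 0 such UMIs. H2-Q7 was 0.60 (0.08 to 1.12) and 0.93 (0.70 to 1.18), and H2-D1 was 0.42 (0.32 to 0.51) and 0.31 (0.26 to 0.35). Tap1 was 0.20 (−0.57 to 0.99) and 0.86 (0.51 to 1.22). Gbp7 was 0.68 (−0.03 to 1.42) and 2.03 (1.17 to 3.01), and Gbp2b, with 5 and 14 UMIs in the first set and 4 and 63 in the second, was 1.40 (−0.16 to 3.23) and 3.56 (2.14 to 5.48). In the 24 saline and 23 NP cells with 1 such UMI, Irf1 lay the other way, with 22 and 13 UMIs (−0.42, −1.53 to 0.64). S100a9 was at 525 and 1177 CPM in the first set and 1482 and 1026 CPM in the second, so neutrophil transcripts moved in opposite directions, and their part in the ratios was not tested. The difference between the sets was not tested.

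Lists of other subsets differed little or were too sparse to compare. Of 9 measured B-1 genes 0 were higher and 2 lower, Lgals1 with 277 UMIs in 64 saline and 162 in 74 NP cells (−1.07, −1.36 to −0.79), 73 of them in 1 saline cell and with a ratio of −0.06 without cells over 10000 UMIs, and Itgam with 30 and 21 UMIs (−0.81, −1.69 to 0.04). S100a6 was at 1257 and 1140 CPM but had a UMI in 46.9% of saline and 28.0% of NP cells. S100a6 is abundant in neutrophils, and its free level was 9903 and 5982 CPM. Endothelial cells at 1000 UMIs had it in 17.8% and 13.9%, beside 20.6% and 12.9% of B cells, and the part of free RNA in these shares was not tested. Of 7 measured marginal zone genes 1 was lower, Cd36, with 42 and 32 UMIs (−0.69, −1.40 to 0.01). Of its saline UMIs 21 lay in 1 cell, and the ratio was 0.012 without the top cells and 0.57 without cells over 10000 UMIs. Cr2, complement receptor 2, was at 160 and 172 CPM. Only 3 of 9 transitional genes reached 50 UMIs, with Cd24a at 247 and 234 CPM, Cd93 at 18 and 41 UMIs (0.89, 0.06 to 1.78), and Sox4 at 20 and 52, of which 33 lay in 1 NP cell (1.08, and 0.04 without the top cells). Cd93 is also an endothelial gene, at 971 and 792 CPM in the endothelial cells here, and in B cells it moved with the endothelial marker Cldn5 (6 and 39 UMIs), whose part in the ratio was not tested. Germinal center genes were near the limit of detection, with Bcl6 at 64 and 77 UMIs and Ung at 23 and 14.

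Plasma cell transcripts came from very few cells. Jchain, which joins IgA and IgM polymers, had 1436 UMIs in 9 saline cells and 2321 in 13 NP cells, of which 907 and 1201 lay in 1 cell each (0.40, and −6.64 without the 12 NP cells Scrublet marked). Txndc5 was at 120 and 101 CPM and Irf4 at 79.4 and 82.4. None of the 10 measured plasma cell genes, 4 atypical memory genes or 8 regulatory and checkpoint genes passed 1.5-fold. Among them were Hhex at 105 and 99.5 CPM, Zeb2 at 59.2 and 57.9, Btla at 80.2 and 93.9, Tgfb1 at 153 and 142 and Cd274 at 55.4 and 59.7. Of 8 measured cell cycle genes 0 were higher and 1 lower, Mcm6 with 56 and 40 UMIs (−0.78, −1.40 to −0.17), which was −0.22 without cells over 10000 UMIs, while Hmgb2 was at 331 and 384 CPM and H2afz at 283 and 230. Mki67 had 18 UMIs in 10 saline and 6 in 4 NP cells.

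The remaining genes with the widest ratios and at least 100 UMIs fell into kinds. Among the higher ones, Ifitm3, an interferon-inducible membrane protein, had 69 UMIs in 57 saline and 213 in 106 NP cells (1.33, 0.93 to 1.74). Its free level was 2031 and 2639 CPM beside 26.4 and 66.2 CPM in B cells, and the ratio ranged from 0.92 to 2.38 over the alternatives, the highest with free RNA subtracted. Klf10, a factor induced by TGF-β, had 35 and 98 UMIs in 32 and 75 cells (1.19, 0.62 to 1.79). Rida (32 and 78 UMIs, 0.99) and 2310010J17Rik (43 and 110 UMIs, 1.06) were likewise spread over cells, with no more than 3 UMIs in a cell. The heat shock gene Hspb1 (29 and 173 UMIs, 2.28), Tppp3 (51 and 167, 1.41, and 0.37 without cells over 10000 UMIs) and E330020D12Rik (66 and 192, 1.24, and 0.48 with equal weight per cell) lay in 9 and 27, 15 and 33, and 35 and 49 cells. Cxcl2, Ccrl2 and Tnfaip2, inflammatory genes of myeloid cells, had ratios of 0.98, 1.89 and 1.42, and single NP cells held 77 of 199, 43 of 137 and 39 of 138 UMIs. Without the highest 5% of Scrublet scores in each library, the ratios were −0.65, −0.12 and −0.79.

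Among the lower genes, Scgb1a1, the secretory protein of airway club cells, had 222 UMIs in 132 saline and 26 in 26 NP cells (−3.39, −4.04 to −2.80). Its level in barcodes with under 50 UMIs was 4429 and 352 CPM. The cystatin-related genes Cstdc5 (242 and 76 UMIs, −1.97) and Cstdc4 (79 and 25, −1.96), which neutrophils express, had free levels of 7887 and 2954 CPM and of 2345 and 857 CPM. With free RNA subtracted the Scgb1a1 ratio was −3.62. For Cstdc5 and Cstdc4 the subtraction left no NP level, and the NP count was set to 3. Their values of −3.73 and −2.77 are therefore set by that minimum and are not measured ratios. Pycard, an inflammasome adaptor, had 419 and 131 UMIs with 201 in 1 saline cell (−1.97, and −1.09 without the top cell of each library but 0.16 without cells over 10000 UMIs). Saa3 had 207 and 51 UMIs with 128 in 1 saline cell (−2.32, −1.74 without the top cells and −4.02 without the cells Scrublet marked), and Tubb2b had 86 UMIs in 31 and 41 in 29 cells (−1.37, and −0.30 without cells over 10000 UMIs).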

How the data were processed

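Lung cells of 1 saline and 1 NP library (10x Genomics) were analysed from the raw count matrices the authors deposited. Reads had been aligned to mm10 with Cell Ranger, version 6.0 by the submitters' processing notes and 4 by the matrix headers, and counts are UMIs per gene and barcode with no normalization. The libraries held 91168129 and 90081747 UMIs over 32285 genes. The members, gene lists and comparisons were chosen with earlier results of these data known.

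UMIs were summed over B cells per library and scaled to CPM. Counts under 3 were set to 3, genes needed 50 UMIs over both libraries, and intervals are exact conditional binomial (ratios), Clopper-Pearson (shares), Poisson (levels) or log-normal (ratios of shares). Genes named were the 15 highest and 15 lowest ratios with at least 100 UMIs outside immunoglobulin variable segments, all B cell markers and immunoglobulin constant genes, the most abundant and defining markers of other cell types, and for each other list the 4 members with the most UMIs and up to 4 past 1.5-fold. Some genes under this rule are not reported here. Positions came from GENCODE vM21 (GRCm38), which held 99.6% of gene identifiers, and promoters from RefSeq. Doublets were kept. Scrublet marked 1 of 8662 saline cells and 311 of 8333 NP cells, so it did not work in the saline library. The calculations were tested on Poisson counts simulated per gene from the pooled profile, without single cells. That test cannot show how the intervals hold where 1 cell carries many of a gene's UMIs. Alternatives covered cell limits, marker minimum, doublets, scaling, UMI minimum, free RNA and thinning depth. Tables were made with pandas 2.3.3 and numpy 2.4.6, intervals with scipy 1.17.1 and doublet scores with scanpy 1.11.5 (Python 3.11.15).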

Additional observations from a re-analysis of the deposited data

How the results depend on the processing

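No paired analysis was possible because each condition has 1 library. The counts of genes past 1.5-fold (201 higher and 278 lower) moved most with the UMI minimum, to 505 and 605 at 20 UMIs and to 37 and 32 at 200 UMIs. The IFN-γ list median of 0.49 ranged from 0.32 to 0.54 over 14 alternatives, class I from 0.19 to 0.26 and class II from −0.04 to 0.08. The B cell share of all cells stayed higher in NP (log2 ratio 0.39 to 0.49), and the share without neutrophils stayed lower (−0.47 to −0.31). Irf1 ranged from 0.91 to 1.07, H2-Q7 from 0.86 to 0.93, Tap1 from 0.79 to 0.87 and Gbp2b from 1.61 to 3.50. With free RNA subtracted the IFN-γ list median was 0.45, Irf1 1.02 and Gbp2b 2.76.

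Of 56 named genes past 1.5-fold, 16 changed sign under at least 1 alternative, and 40 did not. Removal of the top cell of each gene, removal of cells over 10000 UMIs and removal of the highest 5% of Scrublet scores were chosen after seeing the data. With at least 6 marker UMIs, which removes the surfactant cell, with the top cells left out and without cells over 10000 UMIs, the ratios became 2.20, 2.12 and 1.98 for Cxcl15, 1.02, 0.79 and 0.89 for Lyz1, 0.60, 0.61 and 0.57 for Lyz2, 1.60, 1.51 and 1.46 for Sftpa1, 1.28, 1.12 and 1.15 for Sftpb, 1.52, 1.502 and 1.45 for Sftpc, 0.92, 0.70 and 0.79 for Slc34a2 and 0.30, 0.012 and 0.57 for Cd36. For Cxcl15, Sftpb and Slc34a2 the saline count left was under 3 and was set to 3, so their values are lower bounds. With equal weight per cell Cd36 was 0.42, Lyz2 0.075 and Ly6a 0.052. Without the cells Scrublet marked, which were 12 NP and 0 saline B cells, Ccrl2 was −0.14, Cxcl2 −1.04, Tnfaip2 −1.46 and Igha −5.80. Without the highest scores Ccrl2 was −0.12, Cxcl2 −0.65, Tnfaip2 −0.79 and Tagln −0.73. With S100a8 and S100a9 under 1%, Cxcl2 was −0.25 and Tnfaip2 −0.11. Without the top cells Igha was −1.06 and Tagln −0.71. Without cells over 10000 UMIs Ighg3 was 0.67, Pycard 0.16 and Tagln −1.66. Every negative Tagln value leaves out the NP cell with 117 of its 118 UMIs. The NP count left was under 3 and was set to 3, beside at most 7 saline UMIs, so these Tagln values rest on that minimum. The transitional list median of 0.89 rests on 3 genes and was −0.077 at 200 UMIs, where fewer genes were measured. Each of these alternatives removes the named cells, reweights cells or raises the minimum. Genes under about 100 UMIs have intervals wider than 1.5-fold, which limits what these libraries can show. Some genes well above that count do too, as Cd274 with 337 UMIs over both libraries (−0.21 to 0.43). Itgam (−0.56) also came under 1.5-fold without the highest 5% of Scrublet scores.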
